A study of Mus musculus with 9 samples.

Results

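The 37 genes described here lie side by side on mouse chromosome 19, between the start of Mus81 and the end of Nrxn2 (chr19:5482345-6544169, GRCm38), and were chosen by their position and because neighbours in this stretch had lower RNA in EPRSTOPE cells than in mock cells. They are 37 of 52459 gene symbols in the quantification. Of the 37, 33 reached 1 CPM (the count divided by the library's scaled total, times 1000000) in at least 3 libraries and are among the 15370 genes tested, and 4 (Batf2, Kcnk7, Nrxn2 and Rasgrp2) did not. Because the comparison of EPRSTOPE with mock cells selected them, their values in that comparison are given as a description, with no test. The comparison of EPR with EPRSTOPE cells uses the same EPRSTOPE libraries and is described in the same way. For the members, only the comparison of EPR with mock cells is tested, and it shares its mock libraries with the comparison that chose the genes.

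All samples came from NMuMG, an immortalized epithelial cell line of the mouse mammary gland. The cells had been stably transfected with pBICEP-based vectors and grown under G418 as pools of transfectants, with 3 libraries each of mock cells (empty vector), cells overexpressing the full lncRNA EPR (BC030870) and cells overexpressing EPRSTOPE, in which the second codon of the short open reading frame is a stop codon so that no peptide is made. Per the labels, libraries were stranded total RNA, read in pairs of 75 bases. The study's methods name a different run length, and the labels were followed here. The cells were pools and not clones. The study's methods call the libraries of a group biological replicates and its text speaks of independent EPRSTOPE pools, but no label ties a library to a pool, so the p-values measure only the spread between these libraries. Libraries held 5972198 to 11876142 estimated counts. EPR itself was at 0 to 0.161 CPM in mock cells, 23.9 to 27.2 CPM in EPR cells and 3.79 to 4.72 CPM in EPRSTOPE cells, so the RNA was nearly absent from mock cells and present in both overexpressing groups, at unequal levels. The keratins Krt8 and Krt18 were present in all 9 libraries, whereas Cdh1, which encodes E-cadherin, was at 0.308 to 1.15 CPM in mock cells against 546 to 574 CPM in EPR cells and 381 to 426 CPM in EPRSTOPE cells, and Esrp1, Cldn3, Cldn4 and Cldn7 were at or near 0 throughout. The summed CPM of 11 epithelial markers was 3657 to 4100 in mock, 9494 to 10690 in EPR and 10680 to 11000 in EPRSTOPE cells, and that of 7 mesenchymal markers was 3875 to 4039, 2129 to 2382 and 3841 to 4206. Krt8 and Krt18 made up most of the epithelial sum. Krt8 was higher in EPRSTOPE than in EPR libraries, and Krt18 overlapped. Cdh1, Krt19, Krt7, Ocln and Epcam were instead lower in every EPRSTOPE than in every EPR library. Krt19 was at 365.3 to 394.5 CPM in EPRSTOPE and 574.4 to 595.5 CPM in EPR cells. Single mesenchymal markers moved in opposite ways in EPRSTOPE cells. Vim was at 2510 to 2706 CPM in mock, 1640 to 1855 CPM in EPR and 2999 to 3224 CPM in EPRSTOPE cells, whereas Fn1 was at 1003 to 1040, 357 to 401 and 677 to 833 CPM and Cdh2 at 324 to 330, 127 to 141 and 149 to 163 CPM. The part of these markers in the results on the segment was not tested.

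The segment is a gene-dense stretch whose genes do unrelated work. Neighbouring genes on one chromosome share whatever happens to that piece of DNA, such as a gain or loss of a copy, and a few of them also share a start region from which RNA is made in both directions. Otherwise their promoters are separate, and genes that lie next to each other need not be regulated together. Among the products are cofilin, which severs actin filaments (Cfl1), the p65 subunit of NF-kB (Rela), the acetyltransferase TIP60 (Kat5), menin (Men1), a subunit of RNase H2 (Rnaseh2c), the ubiquitin ligase HRD1 (Syvn1) and a ribosomal protein made as a fusion with a ubiquitin-like protein (Fau).

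A few start regions are printed to show what the members' promoters have in common and where they differ. RefSeq windows of 300 bases, 250 before to 50 after a start site (GRCm38.p6), were found for 29 of the 37 genes, in 35 windows. Mrpl49 and Fau are transcribed away from each other and their windows share 291 bases, and Pcnx3 and Map3k11 likewise share 278 bases, so for each pair the window of one gene is shown. Cfl1 is the member with the most RNA, and Ltbp3 is the member that was highest in EPRSTOPE relative to mock cells. Capitals mark the GC box letters GGGCGG and the CCAAT box letters CCAAT on either strand.
Mrpl49, minus strand, chr19:6057706-6058005: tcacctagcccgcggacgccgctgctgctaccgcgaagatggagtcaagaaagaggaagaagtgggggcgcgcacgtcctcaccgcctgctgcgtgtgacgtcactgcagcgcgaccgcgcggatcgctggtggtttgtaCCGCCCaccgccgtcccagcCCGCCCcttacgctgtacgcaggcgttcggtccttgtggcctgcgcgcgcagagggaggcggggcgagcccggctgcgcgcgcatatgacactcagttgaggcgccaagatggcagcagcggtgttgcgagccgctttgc
Map3k11, plus strand, chr19:5688881-5689180: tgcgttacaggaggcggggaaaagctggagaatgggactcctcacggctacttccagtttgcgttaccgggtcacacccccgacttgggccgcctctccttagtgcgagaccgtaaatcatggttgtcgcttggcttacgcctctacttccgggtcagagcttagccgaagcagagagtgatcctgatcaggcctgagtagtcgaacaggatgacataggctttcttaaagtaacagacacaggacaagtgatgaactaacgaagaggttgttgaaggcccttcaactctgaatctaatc
Cfl1, plus strand, chr19:5490205-5490504: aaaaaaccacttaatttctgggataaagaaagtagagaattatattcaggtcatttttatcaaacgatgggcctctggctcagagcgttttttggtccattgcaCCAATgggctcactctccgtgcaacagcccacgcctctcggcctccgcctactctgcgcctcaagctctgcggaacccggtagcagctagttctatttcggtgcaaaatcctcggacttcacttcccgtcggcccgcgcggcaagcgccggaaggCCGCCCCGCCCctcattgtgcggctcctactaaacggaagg
Ltbp3, plus strand, chr19:5740650-5740949: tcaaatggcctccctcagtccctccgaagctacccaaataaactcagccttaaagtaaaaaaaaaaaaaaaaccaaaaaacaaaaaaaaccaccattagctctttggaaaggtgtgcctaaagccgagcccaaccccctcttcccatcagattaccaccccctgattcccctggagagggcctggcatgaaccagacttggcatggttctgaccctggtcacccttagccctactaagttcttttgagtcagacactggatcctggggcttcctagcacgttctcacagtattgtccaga

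The Mrpl49 window held 2 GC boxes and 39 CG dinucleotides, and the Cfl1 window held 2 GC boxes, 1 CCAAT box and 22 CG dinucleotides. The Map3k11 window held neither motif and 15 CG dinucleotides, and the Ltbp3 window neither motif and 3. Over the 35 windows of the members, 62.9% had a GC box, against 35.7% of 32851 windows in all, and 51.4% had a CCAAT box, against 37.4%. The letters TATAAA were in 0 of the 35 windows and in 13.6% of all windows. The median number of CG dinucleotides was 19 in the members' windows and 7 in all windows, and the median GC content was 61.7% and 52.7%. The 22 windows of members with a GC box belong to 17 genes. The windows in all belong to 27025 genes, more than the 15370 tested here, so they are not limited to genes with RNA in these cells. These are descriptions of the letters in one window per start site, and they say nothing on which factor binds there.

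In EPRSTOPE cells the listed genes together had less RNA. The CPM of the members without Fau summed to 2790, 2942 and 2871 in the mock libraries, 2912, 2908 and 2731 in the EPR libraries and 1718, 1799 and 1830 in the EPRSTOPE libraries. The EPRSTOPE sum was 62.2% of the mock sum and the EPR sum 99.4% of it. In a bulk sample, fewer cells that make an RNA and less RNA in each cell cannot be told apart. The median log2 fold change of the 33 tested members was -0.55 in EPRSTOPE against mock cells, where it was -0.02 over all genes tested, and 29 of the 33 were below 0, against 51.6% of all genes. The middle of the members ran from -0.84 (lower quartile) to -0.28 (upper quartile). Of the 33, 18 (54.5%) had a log2 fold change under -0.5, whatever their p, as did 22.2% of all genes. Since this comparison chose the members, nothing is read from that difference. In 24 of the 33 members all 3 EPRSTOPE libraries lay below all 3 mock libraries, and in 20 they lay below all 6 mock and EPR libraries. These orders held for 27.4% and 10.1% of all genes tested.

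**Figure D1:**
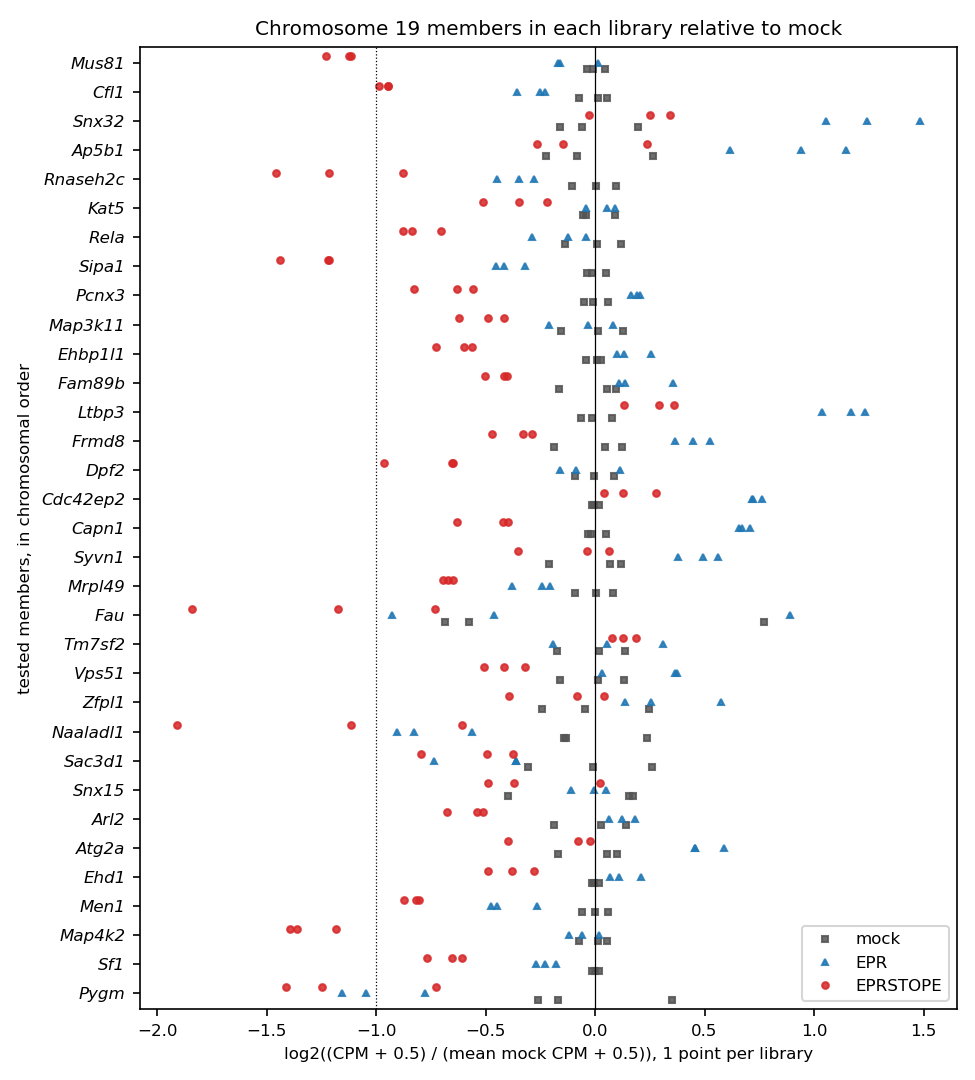
Each row is 1 of the 33 tested members in chromosomal order, and each point is 1 library (grey squares mock, blue triangles EPR, red circles EPRSTOPE) on a log2 scale relative to the mean of the mock libraries, with 0.5 CPM added; the dotted line marks -1. Red points lie left of 0 for most members, with Snx32, Ltbp3, Cdc42ep2 and Tm7sf2 as the 4 members above 0 in the fit, and the spread of the Fau points is the widest.

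For scale, RNA at 66.7% of the mock level is -0.585 on the log2 scale and RNA at 50.0% is -1. A common direction was part of the choice of members, and nothing is read from it. Single members ran from -1.88 to 0.27, with 4 above 0, so the size of the shift differed between them. The lowest, Pygm, passed the filter only through its mock libraries, and the next was Naaladl1 at -1.57. Genomic DNA was not measured, and the copy number of the segment was not tested. Across the members, the Spearman coefficient between the log2 fold change and the mock level was -0.31 in TPM, which is scaled by transcript length, over 33 genes that share the same 6 libraries. Along the segment, the 16 tested members from Mus81 to Cdc42ep2 had a median of -0.57 and the 17 from Capn1 to Pygm a median of -0.55.

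The rest of chromosome 19 had values close to those of the segment. The 429 other tested genes of chromosome 19 outside the interval were at a median of -0.54 in EPRSTOPE against mock cells, and 52.7% of them had a log2 fold change under -0.5, beside 54.5% of the members. When the chromosome was cut into windows of 5 Mb, the 13 window medians lay between -0.82 and -0.35 in EPRSTOPE against mock cells and between 0.48 and 0.83 in EPR against EPRSTOPE cells. The 8 windows with 20 genes or more lay between -0.70 and -0.36 and between 0.48 and 0.64. The 14838 tested genes on the other autosomes and X had a median of -0.01. Apart from chromosomes 14, 15 and 19, the 17 remaining chromosomes had medians from -0.17 to 0.03. Chromosomes 14 and 15 had positive medians, at 0.61 and 0.53 in EPRSTOPE against mock cells, and these were also present in EPR cells at 0.52 and 0.51, whereas the median of chromosome 19 was -0.54 in EPRSTOPE and 0.01 in EPR cells. The 13 window medians were thus all below 0 in EPRSTOPE against mock cells. The listed genes all lie in 1 of these windows.

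**Figure D2:**
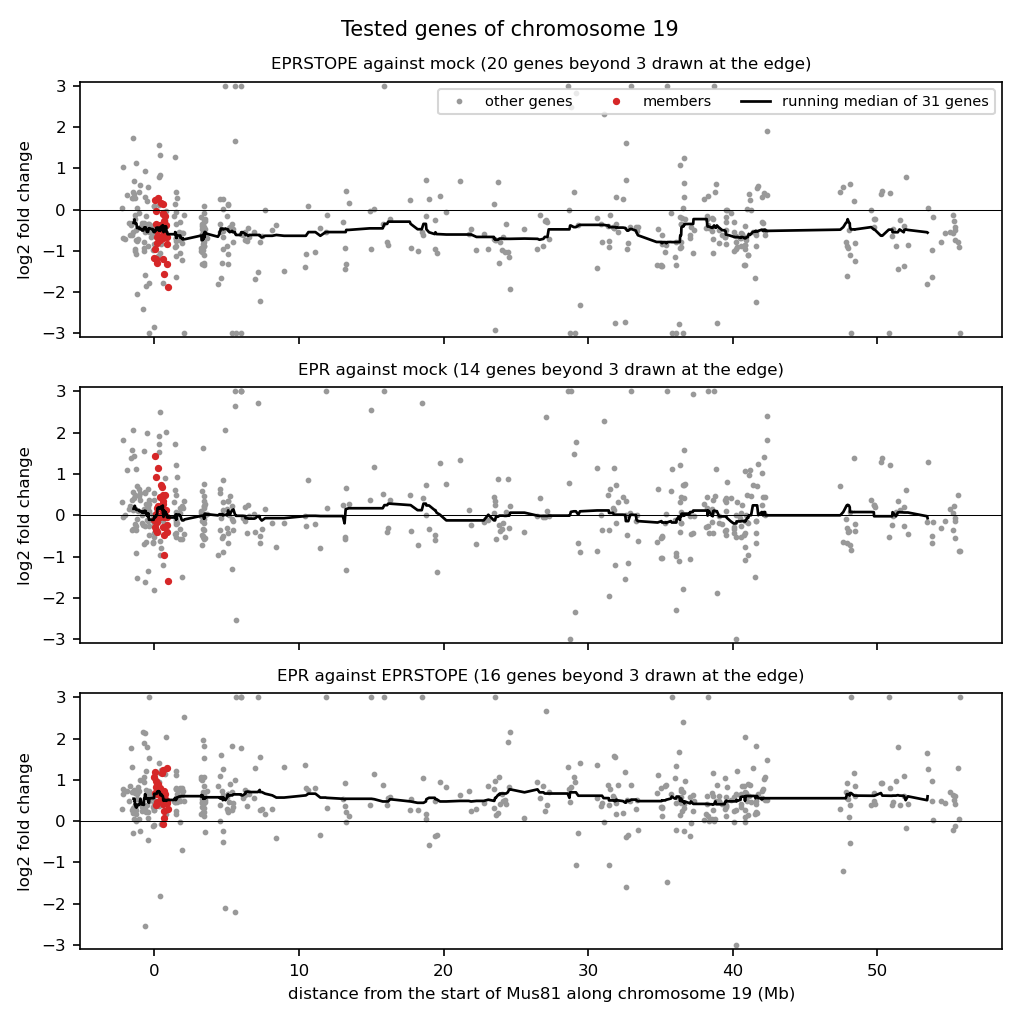
Each point is a tested gene of chromosome 19, placed by its distance in Mb from the start of Mus81, with its log2 fold change in 3 comparisons; members are red and the black line is a running median of 31 genes. In EPRSTOPE against mock cells the line stays below 0 along nearly the whole chromosome, and in EPR against mock cells it stays near 0.

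**Figure D3:**
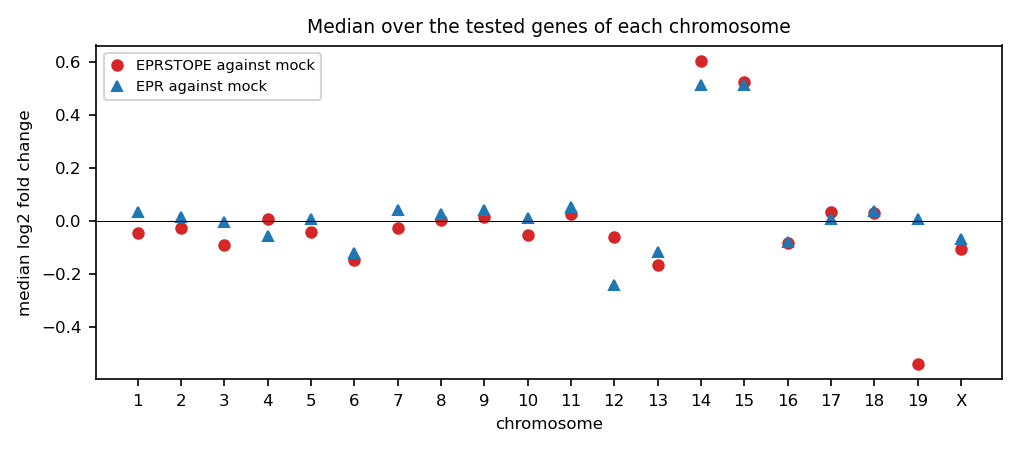
Median log2 fold change over the tested genes of each chromosome, for EPRSTOPE against mock (red circles) and EPR against mock (blue triangles). Chromosome 19 is at -0.54 and 0.01, whereas chromosomes 14 and 15 are above 0.5 in both comparisons.

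The per-library medians show how steady the shift was. Relative to the mean of the mock libraries, the median log2 ratio of the members was -0.51, -0.56 and -0.54 in the 3 EPRSTOPE libraries, and for the rest of chromosome 19 it was -0.51, -0.50 and -0.51. The mock libraries were at -0.02, 0.02 and 0.01 for the members, and the EPR libraries at 0.11, 0.06 and -0.01. All 3 EPRSTOPE libraries were thus far below the 6 others, which overlapped each other.

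**Figure D4:**
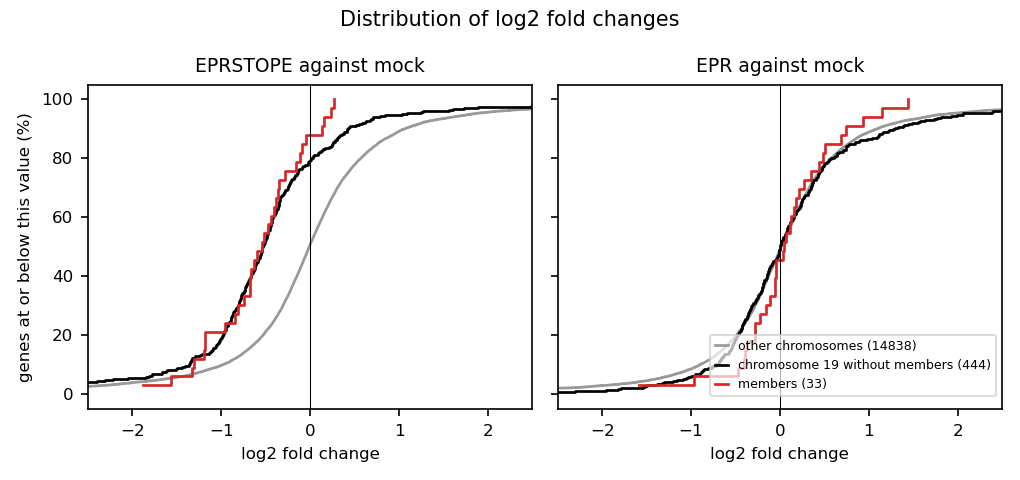
Cumulative share of genes (%) at or below a log2 fold change, for 33 members (red), 444 other tested genes of chromosome 19 (black) and 14838 genes of the other chromosomes (grey). In EPRSTOPE against mock cells the red and black curves run together to the left of the grey one, and in EPR against mock cells the 3 curves cross 50% close to 0.

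The genes at both edges of the list lay below mock in every EPRSTOPE library, and most of those between its members were below 0. Just before the segment, Efemp2, which encodes an elastic fibre protein (chr19:5473954-5482517, overlapping the end of Mus81), had a log2 fold change of -0.44 ± 0.08 (SE) in EPRSTOPE and -0.53 ± 0.08 in EPR against mock cells. Just after it, Rps6ka4, which encodes a kinase of histones and CREB (chr19:6829085-6840636), was at -0.17 ± 0.08 and 0.31 ± 0.08. Of 15 other tested genes inside the interval, 10 were below 0 in EPRSTOPE against mock cells, with a median of -0.39. The 5 above 0 were Malat1, Neat1, Gm37376, Gm27533 and Slc25a45. Gm37376 lies within the coordinates of Malat1 and Gm27533 within those of Neat1, and Slc25a45 was at 1.38 CPM or less in every library. The most abundant of the 15 was the nuclear lncRNA Malat1, with 4670, 4013 and 4488 CPM in mock, 14160, 16390 and 19380 CPM in EPR and 13570, 13220 and 12110 CPM in EPRSTOPE cells. It was higher in both overexpressing groups, by 1.92 ± 0.10 in EPR and 1.56 ± 0.10 in EPRSTOPE cells on the log2 scale. Its CPM exceeded the sum of the members in each group, so the lower sum holds for the listed genes and not for all RNA of the interval. Neat1, the lncRNA on which paraspeckles are built, had 319, 317 and 343 CPM in mock, 837, 917 and 1075 CPM in EPR and 339, 385 and 337 CPM in EPRSTOPE cells, so the EPR libraries stood above the 6 others.

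Levels can be compared between genes only per length. On the TPM scale Cfl1 led the members in mock cells with a mean of 1140 TPM, followed by Fau with 573 and Sf1 with 181 TPM, and the lowest tested member was Naaladl1 with 0.901 TPM. The EPRSTOPE mean was below the mock mean for 29 of 33 members on this scale, at a median of 61.0% of mock, where the median of all tested genes was 88.9%. The EPR mean was at a median of 82.9% of mock for the members and 87.8% for all tested genes.

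The 9 genes for DNA repair, chromatin, transcription and splicing come first. All 8 tested members of this group were below 0 in EPRSTOPE against mock cells, with a median log2 fold change of -0.78, and 7 of the 8 were under -0.5. Rnaseh2c was at -1.19 ± 0.14 (SE) and Mus81, which encodes a nuclease for branched DNA, at -1.18 ± 0.09. Mus81 had 39.7, 39.0 and 41.3 CPM in mock, 35.5, 40.3 and 35.8 CPM in EPR and 18.2, 18.1 and 16.8 CPM in EPRSTOPE cells. The EPRSTOPE libraries were far below the others and the mock and EPR libraries overlapped.
Men1, the gene of the tumour suppressor menin, was at -0.84 ± 0.08, Rela at -0.81 ± 0.09, Dpf2, a subunit of BAF chromatin remodelling complexes, at -0.75 ± 0.10 and Sac3d1 at -0.55 ± 0.17. Kat5 had the smallest shift of the group, at -0.35 ± 0.09. Sf1, the splicing factor that recognizes the branch point, had 166, 162 and 164 CPM in mock, 145, 136 and 140 CPM in EPR and 107, 95.9 and 104 CPM in EPRSTOPE cells. Its 3 groups did not overlap. Batf2, a transcription factor of immune cells, was not measurable, with 0 counts in all mock libraries, 0 in all EPR libraries and 1 in all EPRSTOPE libraries together.

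Among genes for actin, small GTPases and kinases, 5 of 8 tested members had a log2 fold change under -0.5 in EPRSTOPE against mock cells, and the median was -0.56. Cfl1 had 1182, 1291 and 1254 CPM in mock, 1044, 1059 and 970 CPM in EPR and 626, 646 and 645 CPM in EPRSTOPE cells. Its EPRSTOPE mean was 51.4% of the mock mean, and the 3 groups did not overlap. Its neighbour Snx32 overlaps it by 2967 bases on the opposite strand and did not share this shift.
Map4k2, a kinase upstream of the JNK pathway, had the largest shift among the members above 10 CPM. It had 38.2, 34.9 and 37.1 CPM in mock, 35.2, 37.2 and 33.8 CPM in EPR and 14.0, 15.9 and 13.7 CPM in EPRSTOPE cells, and its EPRSTOPE mean was 39.6% of mock. Sipa1, an inactivator of the GTPase Rap1, was at -1.31 ± 0.10, Arl2, a GTPase of tubulin folding, at -0.60 ± 0.11, Map3k11, the mixed lineage kinase MLK3, at -0.52 ± 0.10, Capn1 at -0.48 ± 0.07 and Fam89b at -0.44 ± 0.10. Cdc42ep2, an effector of the GTPase Cdc42, went the other way, with 60.0, 58.7 and 59.1 CPM in mock and 60.9, 64.8 and 72.0 CPM in EPRSTOPE cells. All 3 EPRSTOPE values were above the mock values, by a log2 fold change of 0.16 ± 0.07. Rasgrp2, an exchange factor for Rap1 in blood cells, had 18, 22 and 23 counts in the mock, EPR and EPRSTOPE libraries together.

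The 10 genes for membrane traffic, autophagy and protein quality control had the median closest to 0 of the 5 groups. It was -0.22 in EPRSTOPE against mock cells, and 1 of the 10, Ehbp1l1, was under -0.5. Ehbp1l1, an adaptor of Rab GTPases on recycling membranes, had 190, 188 and 182 CPM in mock, 199.8, 223 and 205 CPM in EPR and 126, 113 and 123 CPM in EPRSTOPE cells. Ehd1, an ATPase of endocytic recycling, had 149, 151 and 148 CPM in mock, 173, 161 and 157 CPM in EPR and 106, 115 and 123 CPM in EPRSTOPE cells. In both genes the EPR libraries were highest in CPM and the 3 groups did not overlap.
Vps51, a subunit of the GARP and EARP tethering complexes, was at -0.41 ± 0.11 and Frmd8, a partner of iRhom proteins, at -0.37 ± 0.09. Snx15 was at -0.28 ± 0.18, Atg2a, a lipid transfer protein of autophagy, at -0.16 ± 0.11, Zfpl1, a Golgi protein, at -0.11 ± 0.17, Syvn1 at -0.09 ± 0.12 and Ap5b1, a subunit of the AP-5 adaptor, at -0.04 ± 0.20. For these 5 genes the EPRSTOPE and mock libraries overlapped, as they did for the sorting nexin gene Snx32 at 0.24 ± 0.26.

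Among the genes of ribosomes and metabolism, Mrpl49, which encodes a mitochondrial ribosomal protein, was at -0.68 ± 0.07 in EPRSTOPE against mock cells with closely placed libraries. Fau, which starts from the same stretch of DNA in the other direction, was far more variable. It had 154, 143 and 394 CPM in mock, 428, 167 and 121 CPM in EPR and 102, 139 and 64.2 CPM in EPRSTOPE cells. All 3 EPRSTOPE values were below the mock values, but the mock values themselves ranged widely, and without mock replicate 3 its log2 fold change went from -1.19 to -0.57. The spread came from 1 transcript, Fau-201, with 125, 77.6 and 367 CPM in mock cells before TMM scaling. Since the gene has processed copies elsewhere in the genome its reads may be split, so its level is uncertain.
Tm7sf2, an enzyme of cholesterol synthesis, was at 0.13 ± 0.17, with 7.85, 9.05 and 9.87 CPM in mock, 11.2, 9.29 and 7.75 CPM in EPR and 9.45, 9.81 and 10.2 CPM in EPRSTOPE cells, and its 3 groups overlapped. It was the 1 member that was not higher in EPR than in EPRSTOPE cells. Pygm, the glycogen phosphorylase of muscle, had the lowest value of all, but on little RNA, with 1.23, 1.98 and 1.12 CPM in mock, 0.441, 0.636 and 0.374 CPM in EPR and 0.675, 0.320 and 0.230 CPM in EPRSTOPE cells. Its log2 fold change was -1.88 ± 0.53. Pygm passed the filter only through its mock libraries, since every EPR and EPRSTOPE library was below 1 CPM. Its lower level in both overexpressing groups was thus set in part by the filter, and nothing is read from it.

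The last group holds genes of the matrix, the cell surface and a channel. Pcnx3, a membrane protein of the pecanex family, had 111, 103 and 106 CPM in mock, 123, 122 and 120 CPM in EPR and 60.1, 72.6 and 68.9 CPM in EPRSTOPE cells, with 3 groups that did not overlap. Ltbp3, which binds latent TGF-β and stores it in the matrix, had 63.1, 60.9 and 67.3 CPM in mock, 151, 144 and 131 CPM in EPR and 69.8, 78.0 and 82.0 CPM in EPRSTOPE cells. Its EPRSTOPE libraries lay slightly above the mock libraries and its EPR libraries far above both.
Naaladl1, a relative of a glutamate carboxypeptidase, had 2.31, 2.29 and 3.13 CPM in mock, 1.23, 1.15 and 1.59 CPM in EPR and 1.52, 0.320 and 0.920 CPM in EPRSTOPE cells. Both overexpressing groups lay below mock. Kcnk7, a member of a potassium channel family, had 16, 27 and 14 counts and Nrxn2, a neurexin of synapses, had 7, 9 and 2 counts in the mock, EPR and EPRSTOPE libraries together, too few for a comparison.

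The transcripts of the members were compared in CPM without TMM scaling, unlike their genes. Of 133 transcripts of the members at 1 CPM or more in at least 3 libraries, 115 had a lower mean in EPRSTOPE than in mock cells. This held for 61 of 75 coding transcripts and for 38 of 41 transcripts with a retained intron. The TMM factors were 1.04 to 1.09 in mock and 0.959 to 0.969 in EPRSTOPE libraries. Leaving them out tilts these counts toward lower in EPRSTOPE cells. No share over all transcripts is given, and nothing is read from the counts. In the overlapping pairs Cfl1 and Snx32, Rnaseh2c and Kat5, Tm7sf2 and Vps51, Arl2 and Batf2, Syvn1 and Mrpl49, and Pcnx3 and Map3k11 reads of one gene may have been assigned to the other, since the use of strand in the quantification was not stated.

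The comparison of EPR with mock cells asked whether the full lncRNA shifted the same genes. The median log2 fold change of the members was 0.05, beside 0.02 for all genes tested and 0.00 for the rest of chromosome 19. Of the 33 members, 6 (18.2%) were called higher and 0 were called lower by edgeR's quasi-likelihood test (adjusted p below 0.01 and a log2 fold change over 0.5 in size), where 15.9% and 12.2% of all genes were called, so the share that rose was near that of all genes. At an unadjusted p under 0.05, 9 members were lower, and DESeq2 and limma-voom also called 0 lower. In 12 members all 3 EPR libraries lay above all mock libraries, an order found in 30.0% of all genes, and in 9 they lay below, an order found in 27.4%.

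Ltbp3 rose most clearly in EPR cells, by 1.15 ± 0.08 (SE) on the log2 scale, with an edgeR adjusted p of 1.5e-07. Snx32 rose by 1.44 ± 0.24 (edgeR adjusted p of 0.00035), with 3.08, 2.29 and 2.49 CPM in mock, 6.87, 5.98 and 8.22 CPM in EPR and 3.21, 2.56 and 3.45 CPM in EPRSTOPE cells. Ap5b1 rose by 0.94 ± 0.19 (edgeR adjusted p of 0.0013), with 8.77, 12.5 and 9.71 CPM in mock, 20.3, 23.4 and 16.1 CPM in EPR and 9.28, 12.3 and 8.51 CPM in EPRSTOPE cells. In both genes the EPR libraries lay above the 6 others, while mock and EPRSTOPE libraries overlapped.
Cdc42ep2 rose by 0.74 ± 0.07 (edgeR adjusted p of 2.0e-06), with 97.5, 101 and 98.1 CPM in EPR cells. Capn1, the catalytic subunit of the protease calpain-1, rose by 0.68 ± 0.07 (edgeR adjusted p of 4.9e-06), with 59.2, 62.2 and 58.8 CPM in mock, 95.0, 96.1 and 98.3 CPM in EPR and 38.6, 44.8 and 45.5 CPM in EPRSTOPE cells. It is the 1 gene of these 6 whose EPRSTOPE libraries all lay below mock. Atg2a was at 0.50 ± 0.10 (edgeR adjusted p of 0.0016), just past the threshold, with 37.2, 43.6 and 45.0 CPM in mock, 63.4, 57.8 and 57.8 CPM in EPR and 31.7, 41.3 and 39.8 CPM in EPRSTOPE cells. Its call was lost in 14 of 17 alternatives, among them without mock replicate 1 (0.40) or 2 (0.50), without EPR replicate 1 (0.44), without any 1 EPRSTOPE replicate (0.48 to 0.49), and with DESeq2 (0.48) or limma-voom (0.49), whereas the calls of the other 5 were kept in all 17. The exact permutation test on single genes, two-sided, gave p = 0.1 for each of the 6, the smallest that 3 against 3 libraries allow.
The 8 tested genes of DNA repair, chromatin, transcription and splicing had a median of -0.19 in EPR against mock cells and 7 of them were below 0. The 10 genes of membrane traffic had a median of 0.40. Of these, 3 were called higher (Snx32, Ap5b1 and Atg2a), where 15.9% of all genes were. A difference between the groups of genes was not tested. Cfl1, Men1, Sipa1, Sf1 and Mrpl49 were lower in EPR than in mock cells with an adjusted p under 0.01 in edgeR but by less than 0.5, from -0.40 ± 0.09 for Sipa1 to -0.23 ± 0.06 for Sf1. Frmd8 at 0.45 ± 0.09 and Syvn1 at 0.48 ± 0.12 were higher in the same way.

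**Figure D5:**
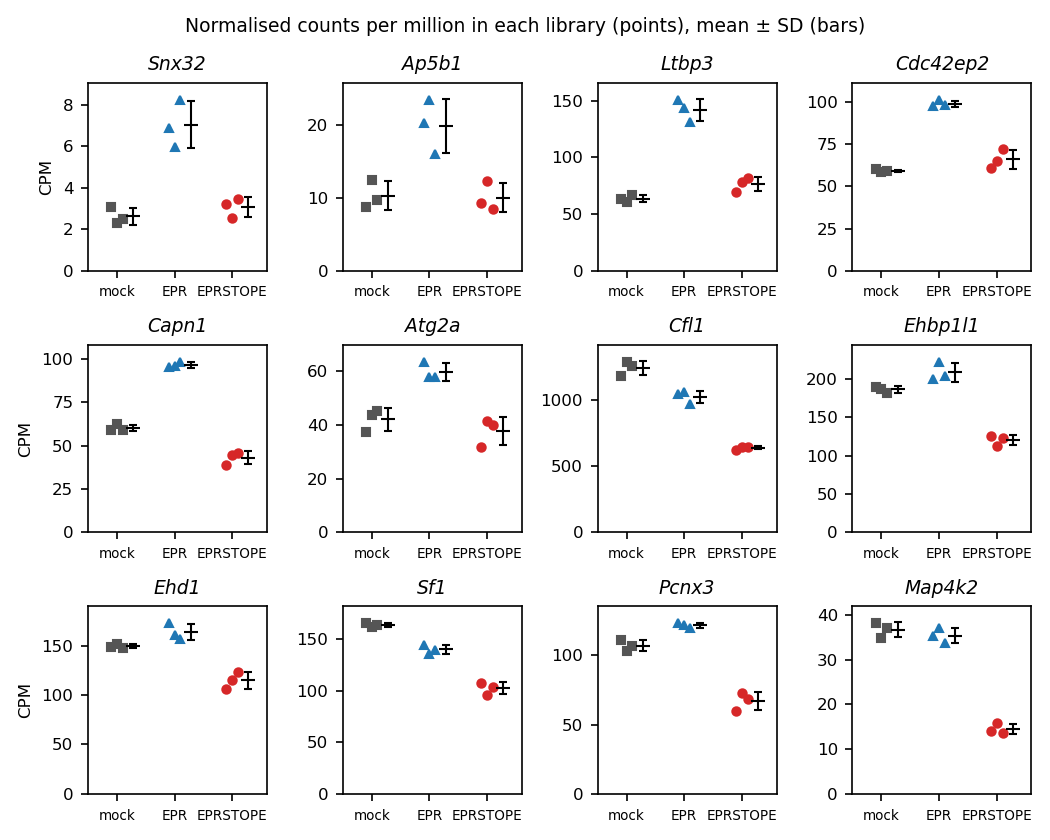
Normalised CPM in each library for the 6 members called higher in EPR against mock cells, 5 of the most abundant members and Map4k2, with mean ± SD of 3 libraries per group beside the points; each axis starts at 0. The first 6 genes are highest in EPR cells, and Cfl1, Ehbp1l1, Ehd1, Sf1, Pcnx3 and Map4k2 are lowest in EPRSTOPE cells.

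Set against each other, the 2 overexpressing groups differed in most members. The median log2 fold change of EPR against EPRSTOPE cells was 0.66 for the members, 0.02 for all genes tested and 0.55 for the rest of chromosome 19. It was above 0 in 32 of 33 members and above 0.5 in 23 (69.7%), whatever their p, as it was in 17.9% of all genes. In 27 members all EPR libraries lay above all EPRSTOPE libraries, against 21.5% of all genes. The largest values were those of Map4k2, at 1.28 ± 0.09, and Fau, at 1.23 ± 0.49, followed by Snx32 at 1.20 ± 0.24 and Capn1 at 1.16 ± 0.07. Map4k2 was near mock in EPR cells and low in EPRSTOPE cells, and Snx32 was high in EPR cells and near mock in EPRSTOPE cells. These values share the EPRSTOPE libraries that chose the genes and add no independent support.

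Partner genes on other chromosomes were examined next, which the choice of members did not use. They are genes whose products work with those of the members or are related to them. Target genes of NF-kB and of menin were counted among them. Of 120 tested, 30 (25.0%) were called higher and 10 (8.33%) lower in EPRSTOPE against mock cells, where 16.0% and 12.0% of all genes were. In EPR against mock cells 24 were called higher and 11 lower, where 15.9% and 12.2% of all genes were. The list of NF-kB target genes alone gave 12 of the 30 and 11 of the 24. The larger shares called higher thus rest largely on that list. The lists were chosen with earlier results of these data known. The single lists hold 7 to 16 tested genes, and the same shares of all genes apply to each. The median of the 120 in EPRSTOPE against mock cells was 0.15, beside -0.55 for the members.
The partners of Rela included 9 subunits and inhibitors of NF-kB, of which 2 rose in EPRSTOPE cells, Bcl3 by 1.08 ± 0.13 and Ikbkg by 0.51 ± 0.07. Of 15 tested NF-kB target genes, 12 rose and 0 fell in EPRSTOPE cells, and 11 rose in EPR cells. Rela RNA itself was at 57.0% of the mock mean in EPRSTOPE and 90.2% in EPR cells. The neutrophil chemokine gene Cxcl5 went from 1.80 ± 0.82 CPM (SD, n = 3) in mock to 2730 ± 52.9 in EPR and 2707 ± 111 CPM in EPRSTOPE cells. The cytokine gene Il6 had 2 counts in the 3 mock libraries together, 4.68 ± 1.15 CPM in EPR and 12.2 ± 0.0852 CPM in EPRSTOPE cells.

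For the TIP60 complex of Kat5, 2 of 16 tested members fell in EPRSTOPE cells, a share near the 12.0% of all genes. They were Ing3, by a log2 fold change of -1.15 ± 0.11, and Trrap, by -0.88 ± 0.07. In EPR cells 2 of the 16 were called lower as well, Ing3 (-0.82 ± 0.11) among them. Trrap was at -0.33 ± 0.07 in EPR cells, short of the fold limit. Of 7 partners of Rnaseh2c and Mus81, 2 fell and 1 rose in EPRSTOPE cells. Eme1, which encodes a partner of MUS81, fell from 22.6 ± 0.473 CPM in mock to 6.13 ± 0.418 CPM in EPRSTOPE and 6.53 ± 0.718 CPM in EPR cells, so it was low in both. Eme2, also on this list, was called in neither group, at 33.5 ± 3.09 CPM in mock, 25.4 ± 4.06 CPM in EPRSTOPE and 33.0 ± 3.69 CPM in EPR cells. Gen1, another nuclease of branched DNA, fell by a log2 fold change of -1.54 ± 0.11 in EPRSTOPE and -1.60 ± 0.11 in EPR cells.
Of 9 partners of menin, 3 fell in EPRSTOPE cells, among them its target genes Cdkn2c (-1.11 ± 0.12) and Cdkn1b (-0.68 ± 0.10), which encode inhibitors of cyclin-dependent kinases. In EPR cells 3 of the 9 fell as well, with Cdkn2c at -0.80 ± 0.12, and Cdkn1b was at -0.44 ± 0.09, short of the fold limit. None of 11 tested partners of Dpf2 in BAF complexes was called in EPRSTOPE cells by edgeR (0 calls, with 5 at an unadjusted p under 0.05 and 0 by DESeq2 and limma-voom). Of 9 partners of Vps51 and Ap5b1, 0 were called by edgeR in EPRSTOPE cells, with 5 at an unadjusted p under 0.05 and 1 each by DESeq2 and limma-voom.

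Of 12 partners of Syvn1 in the degradation of endoplasmic reticulum proteins, 6 were called higher and 0 lower in EPRSTOPE cells, and 5 higher in EPR cells. Over all genes, 16.0% were called higher and 12.0% lower in EPRSTOPE cells, and 15.9% and 12.2% in EPR cells. The same shares apply to the lists that follow, and no list was tested as a set. Herpud1 rose by 1.25 ± 0.08 in EPRSTOPE and 1.49 ± 0.08 in EPR cells, and Derl1, which lies on chromosome 15, by 1.25 ± 0.07 and 1.11 ± 0.07. Of 12 genes of actin turnover and calpain, 3 rose in EPRSTOPE cells. Dstn, which encodes the close relative of cofilin named destrin, went from 509 ± 16.0 CPM in mock to 1035 ± 78.1 CPM in EPRSTOPE and 1318 ± 5.93 CPM in EPR cells, opposite in direction to Cfl1. Capns1, the small subunit shared by calpains, rose by 0.90 ± 0.06 in EPRSTOPE and 0.77 ± 0.06 in EPR cells, whereas Capn1 was at -0.48 and 0.68.
Among 11 genes of the JNK cascade, 2 rose and 3 fell in EPRSTOPE cells. Mapk9 (JNK2) rose by 1.47 ± 0.09, and Map3k9, a paralog of Map3k11, was at 9.03 ± 0.470 CPM in mock cells and 0 counts in EPRSTOPE cells, which is at least 72.3-fold lower when a floor of 3 counts over the group is used. It was also nearly absent from EPR cells, with 2 counts in the 3 libraries together, whereas the EPR and mock libraries of Map3k11 overlapped. Of 10 tested paralogs of Ltbp3, Ehd1, Cdc42ep2 and Atg2a, 4 rose in EPRSTOPE cells, with Cdc42ep5 at 1.13 ± 0.200 CPM in mock, 27.0 ± 2.06 CPM in EPR and 34.2 ± 5.75 CPM in EPRSTOPE cells, and Cdc42ep4 at 1.99 ± 0.372, 16.4 ± 3.22 and 15.8 ± 2.61 CPM.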

How the data were processed

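The RNA-Seq series holds 9 libraries from the NMuMG line, 3 per group, grouped by the genotype label. Per the labels, libraries were made with a stranded total RNA kit. The authors quantified transcripts with Kallisto, and the submitters' processing notes name Kallisto 0.43.1, bcl2fastq 2.0 and the builds GRCm38.p5 and hg38. The deposited files hold estimated counts and TPM (per transcript length, scaled to a fixed total) for 131100 transcripts. Here, estimated counts were summed per gene symbol and rounded, and 52324 of 52459 symbols were placed on GRCm38 with the Gencode M21 annotation.

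Genes with 1 CPM in at least 3 libraries were fitted with edgeR 4.0.16 (TMM, quasi-likelihood test, 3 groups in 1 fit, Benjamini-Hochberg over all 15370 genes), in R 4.3.3. A call needed an adjusted p below 0.01 together with a log2 fold change over 0.5 in size. For the members, comparisons with EPRSTOPE libraries are given by size alone, a choice made after seeing the data. CPM of genes are TMM-scaled, CPM of transcripts are not, and ± is the SE of a log2 fold change unless SD is named. The scripts were tested on simulated data. Alternatives were DESeq2 1.42.0, limma-voom 3.58.1, other scaling factors and filters, counts scaled from TPM, pairs of groups, libraries left out, and other thresholds. A count of 3 is worth 0.253 to 0.502 CPM, and intervals cover counting error only where given.

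The members and gene lists were chosen with earlier results of these data known. Values per library are printed for the 8 members with the highest mean CPM, the 3 lowest and 3 highest in EPRSTOPE against mock cells, each called in EPR against mock cells and, as pooled counts, each that did not pass the filter; partner lists give up to 2 called genes with the largest change. Mus81, Mrpl49, Tm7sf2 and, among the partners, Eme2 were added after their values were seen. A sample's number follows accession order and pairs no libraries.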

Additional observations from a re-analysis of the deposited data

How the results depend on the processing

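The median of the members in EPRSTOPE against mock cells stayed between -0.61 and -0.51 over all alternatives fitted, with 16 to 20 members under -0.5, and in EPR against EPRSTOPE cells it stayed between 0.57 and 0.72, with 21 to 25 members above 0.5. With 1 library left out it ranged from -0.61 (without EPRSTOPE replicate 1) to -0.51 (without mock replicate 2). In EPR against mock cells the median of the members was between -0.019 and 0.132 with 1 library left out, so its sign is not settled, and 0 to 1 members were called lower, the 1 being Sac3d1 without mock replicate 3. Syvn1 was called higher without mock replicate 3 or EPR replicate 1. The median of the 15 other genes of the interval ranged from -0.56 to -0.20 in EPRSTOPE against mock, from 0.18 to 0.30 in EPR against mock and from 0.56 to 0.67 in EPR against EPRSTOPE cells with 1 library left out, and that of the rest of chromosome 19 from -0.57 to -0.53 in EPRSTOPE against mock cells.

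With counts scaled from TPM, the members' median was 0.57 in EPR against EPRSTOPE and -0.077 in EPR against mock cells, the other genes of the interval were at -0.15, 0.51 and 0.38 in EPRSTOPE against mock, EPR against EPRSTOPE and EPR against mock cells, and the rest of chromosome 19 was at -0.46 in EPRSTOPE against mock cells. With no filter, 1 member (Sac3d1) was called lower in EPR against mock cells, and in EPRSTOPE against mock cells the medians were -0.42 for the other genes of the interval, -0.58 for the rest of chromosome 19 and -0.055 for all genes. With 10 counts in every library the other genes of the interval were at -0.42. With no fold limit, an adjusted p under 0.01 gave 5 members lower in EPR against mock cells, with 20 partner genes lower in EPRSTOPE and 23 in EPR against mock cells. An adjusted p under 0.05 gave 8 members lower in EPR against mock cells, and 25 and 52 partner genes lower and higher in EPRSTOPE and 31 and 43 in EPR against mock cells. The cause of these differences was not tested, apart from the looser limits, which were not applied to the members' values in the comparisons given with no test. No paired analysis was possible because the labels give no replicate numbers. Members with a mean under 3 CPM in mock cells (Snx32, Naaladl1, Pygm) rest on few counts, and the depth limits what can be said of them.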
